A study of Mus musculus with 10 samples.

Results

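The Schwann cell and neural crest genes are 36 named genes that mark the passage from neural crest to Schwann precursor, immature Schwann cell and myelinating Schwann cell, with ligands and receptors that act on these cells. They were taken by symbol from a table of 47643 genes measured by RNA sequencing in 10 mouse melanomas. All 36 were found. They fall into 6 early crest and progenitor genes, 11 Schwann precursor and immature Schwann cell genes, 13 myelin genes and their regulators, and 6 ligands and receptors. Of these, 34 had enough counts to be tested. Ugt8a and Nrg1 did not.

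The melanomas came from mice that carried Tyr::CreERT2/+ and BRafV600E/+. In 5 of them the Fes tyrosine kinase gene was knocked out (Fes-/-, called Fes KO here), and 5 carried both wild-type copies (Fes+/+, called Fes WT). All 10 tumours therefore shared the oncogenic Braf allele and the tamoxifen-dependent Cre. That Cre is driven by the tyrosinase promoter, which is active in melanocytes and in some neural crest derivatives. Tumours were started by painting back skin with 5 mM 4OH-tamoxifen. The Fes-/- allele is not written as a conditional one, so the comparison does not separate tumour cells from stromal and immune cells. Whether each tumour came from its own animal is not said in the labels, and every p-value here measures only how these tumours spread.

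The neural crest is an embryonic cell population that gives rise both to the glia of peripheral nerves and to melanocytes. Schwann cell precursors, which travel along nerves, can themselves produce melanocytes. Sox10 acts in both lineages, Egr2 switches on the myelin program, and Sox2 keeps immature Schwann cells from myelinating. Neuregulin 1 from axons signals through the receptors Erbb2 and Erbb3. The GDNF family ligands bind GFRα receptors, which signal with Ret or with Ncam1. In melanoma, nerve-like and crest-like gene programs, with Ngfr as a common marker, are known in dedifferentiated cells.

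Promoter sequences are shown for 4 members on which the values below turn. Nes and Dhh had the closest pattern across tumours, Ngfr had the smallest p of the 34 tested members, and Prx is a myelin gene with the palindromic AP-2 motif. They come from RefSeq (GRCm38.p6), run 5′ to 3′ on the strand of the gene and end before its start. Capitals mark the GC box (GGGCGG) in Nes, Dhh and Ngfr and the AP-2 motif (GCCNNNGGC) in Prx, searched on both strands.
Nes, chr3:87970843-87971077, + strand: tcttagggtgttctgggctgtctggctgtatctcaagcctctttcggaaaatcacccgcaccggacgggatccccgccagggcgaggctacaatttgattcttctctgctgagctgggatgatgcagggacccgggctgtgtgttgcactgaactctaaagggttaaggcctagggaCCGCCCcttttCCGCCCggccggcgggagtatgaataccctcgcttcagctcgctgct
Dhh, chr15:98898541-98898790, - strand: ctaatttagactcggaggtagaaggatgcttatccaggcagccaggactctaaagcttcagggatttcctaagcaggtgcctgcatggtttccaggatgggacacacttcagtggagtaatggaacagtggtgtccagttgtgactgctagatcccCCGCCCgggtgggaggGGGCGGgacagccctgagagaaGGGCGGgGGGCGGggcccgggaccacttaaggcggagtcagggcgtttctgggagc
Ngfr, chr11:95587736-95587948, - strand: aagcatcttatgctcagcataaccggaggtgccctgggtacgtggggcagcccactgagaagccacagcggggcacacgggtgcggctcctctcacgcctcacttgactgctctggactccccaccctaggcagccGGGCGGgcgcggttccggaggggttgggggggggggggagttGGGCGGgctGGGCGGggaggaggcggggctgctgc
Prx, chr7:27499074-27499323, + strand: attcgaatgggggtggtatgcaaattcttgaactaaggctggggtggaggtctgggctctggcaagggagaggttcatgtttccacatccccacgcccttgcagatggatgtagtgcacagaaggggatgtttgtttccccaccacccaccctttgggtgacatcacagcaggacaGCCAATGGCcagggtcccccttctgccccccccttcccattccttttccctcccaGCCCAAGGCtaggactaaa
In the bases printed, the GC box occurred 2 times in Nes, 4 times in Dhh and 3 times in Ngfr, and Prx held 2 AP-2 motifs. The Nes and Ngfr windows were cut to 235 and 213 bases so as to end before the annotated start, and the whole Ngfr window held 4 GC boxes. For the counts that follow, whole windows of 250 bases were found for 25 of the 36 members. Those not matched were Cdh19, Cryab, Drp2, Gap43, Gfra2, Gfra3, Mbp, Ncam1, Nrg1, Pou3f1 and Sox10. The AP-2 motif was in 5 of 10 windows of myelin genes, in 0 of 5 early crest windows, in 0 of 7 Schwann precursor windows and in 1 of 3 windows of ligands and receptors. Among all 32851 windows, 13.7% held it, without matching for GC content. Some windows lay far from the annotated start of the gene: 3456 bases for Tfap2a, 3140 for Tfap2b, 3712 for Gfap and 15271 for L1cam. The difference between classes was not tested. The GC box was in 13 of the 25 members' windows and in 32.7% of all windows. A SOX core (ACAAAG) was in 3 of the 25 and in 16.5% of all windows. No 2 motif matches of different kinds overlapped in the sequences shown. These counts describe letters in a window.

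Each tumour gave 13226783 to 16599120 counts and 20505 to 22395 genes with a count. Levels below are CPM (counts scaled to a common depth on TMM-scaled library sizes). Fes itself, the gene knocked out in Fes KO, was at 84.6, 74.5, 72.4, 72.7 and 102 CPM in Fes WT 1 to 5 and at 33.4, 32.1, 29.2, 57.5 and 42.3 CPM in Fes KO 1 to 5. The groups did not overlap but transcript was still counted (log2 fold change -1.06, SE 0.19, adjusted p = 0.0846 with edgeR). Which part of Fes was changed is not given in the labels. Of the 10 tumours, 3 expressed Xist, at 720 CPM (Fes WT 5), 713 CPM (Fes KO 1) and 670 CPM (Fes KO 2), and the rest had up to 0.678 CPM. Tissue differed as well: summed keratinocyte markers were 5705 CPM in Fes KO 2 and 13.9 to 224 CPM elsewhere. Summed skeletal muscle markers were 16032 CPM in Fes WT 3, 1961 CPM in Fes KO 2 and 3.99 to 418 CPM elsewhere. Melanocyte markers summed to 42.2 to 63.6 CPM in Fes WT and to 69.7, 574, 94.3, 76.9 and 30.4 CPM in Fes KO 1 to 5. Of the 7 tested ones, 6 had log2 fold changes above 0 and 4 an unadjusted p below 0.05 (median 3.55). Macrophage markers summed to 1057 to 2604 CPM in Fes WT and to 688, 1504, 691, 1546 and 670 CPM in Fes KO 1 to 5, and all 6 had log2 fold changes below 0, 3 with an unadjusted p below 0.05 (median -0.78). Oligodendrocyte markers summed to 5.49 to 48.6 CPM, with Opalin at 0 in every tumour. The 12 neuronal markers summed to 55.1 to 229 CPM, nearly all of it from Tubb3 (up to 168 CPM), Map2 (37.7 to 106 CPM) and Syp (7.67 to 23.8 CPM), and the defining markers Snap25, Syt1, Nefl, Elavl3 and Elavl4 each stayed below 1 CPM.

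Most members were counted in all 10 tumours, but levels of the tested ones ranged from 1.90-fold (Cryab) to 90.7-fold (Gfap) between tumours. Per kilobase of exon, 15 of the 36 members had a mean level over tumours above 50 CPM per kb and 6 had one below 1. The 15 include the early crest genes Sox10, Nes and Foxd3. The share of all genes above that level is not given here. The highest was Cadm4, a Schwann cell adhesion molecule that binds axons, at 394 CPM per kb. Pmp22, a membrane protein of compact myelin, stood at 324, and Sox10, the transcription factor that Schwann cells and melanocytes both need, at 226 CPM per kb. The small heat shock protein gene Cryab was at 223 and the calcium-binding glial protein gene S100b at 221 CPM per kb, next to Sox10 and within its spread over tumours. The lowest were Nrg1 at 0.0314, Ugt8a at 0.0914, Cldn19 at 0.172, Gldn at 0.236, Mag at 0.425 and Artn at 0.544 CPM per kb. The median over members was 37.2 CPM per kb for the early crest genes, 64.7 for Schwann precursor genes, 15.1 for myelin genes and 16.9 for ligands and receptors. The myelin class ran from 0.0914 to 394 CPM per kb. Myelin genes with broader roles (Cadm4, Pmp22, Cryab, Cnp) were at its top. Those of the mature internode and node (Mag, Gldn, Cldn19, Ugt8a) were at its foot. Whether a low level comes from fewer cells of a type or from less RNA per cell cannot be told apart in bulk tumours.

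**Figure D1:**
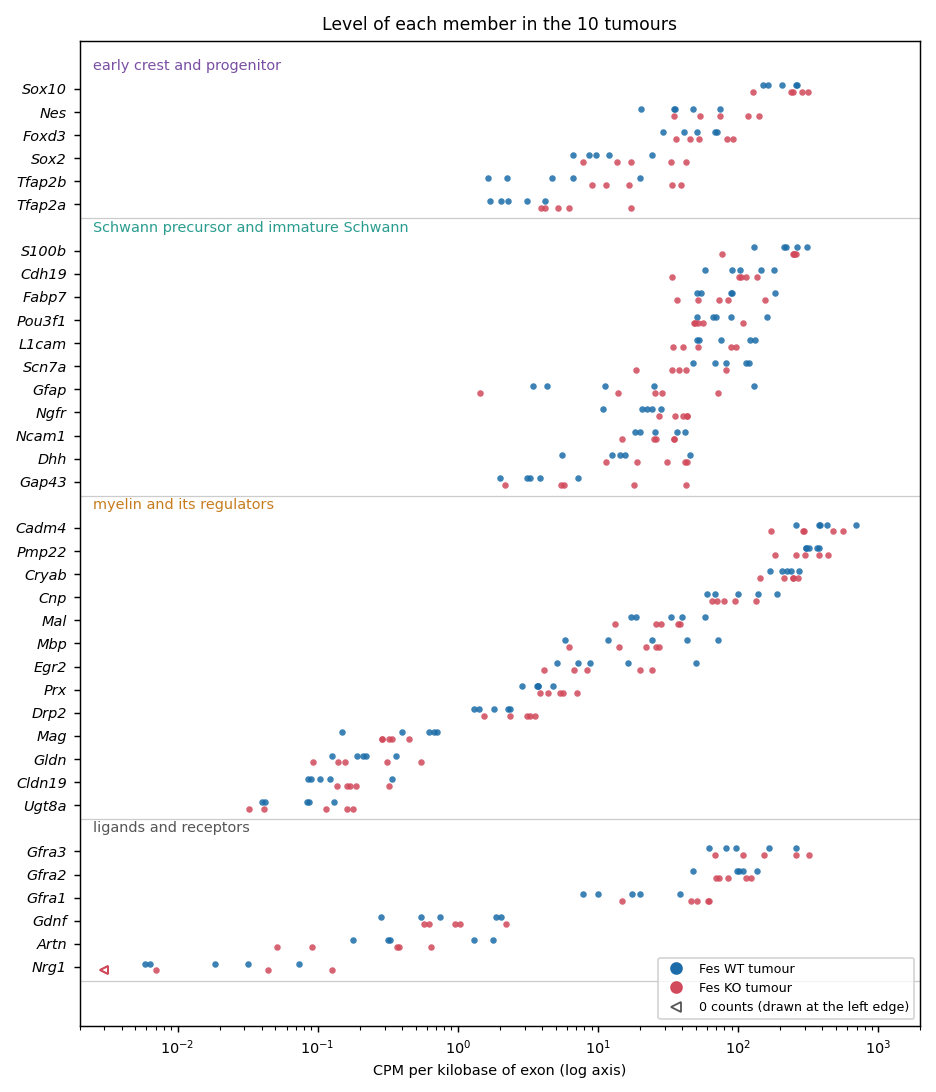
Level of each of the 36 members in CPM per kb of exon on a log axis, 1 point per tumour (Fes WT and Fes KO in separate colours), ordered within the 4 classes. Cadm4 and Pmp22 lie at the top, and Nrg1, Ugt8a and Cldn19 at the bottom.

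Fes KO tumours were compared with Fes WT tumours to ask whether these genes depend on Fes in melanoma. None of the 34 tested members passed the edgeR quasi-likelihood test at an adjusted p below 0.05, where 0.175% of the 14816 tested genes did. The smallest adjusted p of a member was 0.289, for Ngfr. At an unadjusted p below 0.05 there were 9 of the 34 members, beside 9.62% of all tested genes. Of these, 8 were higher in Fes KO (Tfap2a, Tfap2b, Nes, Ngfr, Gap43, Prx, Drp2 and Gfra1; background 4.23%). Scn7a alone was lower (background 5.39%). The log2 fold change was above 0 in 16 of 34 members, beside 52.4% of all genes, with a median of -0.04 over members and 0.01 over all tested genes. For no member were the 2 groups free of overlap in CPM, whereas 1.9% of all genes had groups apart. The members' median and signs were thus near those of all genes, while more of them than the background share were higher at an unadjusted p below 0.05. The members were chosen with earlier results of these data known, and some of them vary together across tumours. That share is therefore a description and no test of the list. With DESeq2, 2 members passed, Ngfr (adjusted p = 0.0435) and Tfap2a (adjusted p = 0.0494), both higher in Fes KO, where 0.621% of all genes passed in that direction.

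The classes differed in where their log2 fold changes (Fes KO minus Fes WT) lay. All 6 early crest genes had values above 0, with a median of 0.95, and 3 of them had an unadjusted p below 0.05. Of the 11 Schwann precursor genes, 3 were above 0 and the median was -0.22. Of the 12 tested myelin genes, 5 were above 0 and the median was -0.16. The 5 tested ligands and receptors had 2 above 0 and a median of -0.02. The difference between classes was not tested. In each of the 23 alternative fits all 6 early crest genes stayed above 0, and their median was 1.09 with melanocyte marker RNA as a term. Macrophage marker RNA was lowest in Fes KO 1, 3 and 5, the tumours with the highest mean of the early crest genes, and its part in these values was not tested. The Schwann precursor median was 0.01 without Fes KO 2, with 6 of 11 above 0, and 0.22 with melanocyte marker RNA as a term in the fit, so its sign depended on these settings.

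The mean log2 CPM of the 6 early crest genes was 5.996, 5.94, 5.99, 6.02 and 7.01 in Fes WT 1 to 5 and 7.21, 6.62, 7.38, 6.77 and 7.51 in Fes KO 1 to 5. Fes WT 1 to 4 lay below all Fes KO tumours, and Fes WT 5 lay above Fes KO 2 and Fes KO 4. The same mean over the Schwann precursor genes was 7.27, 7.32, 6.65, 7.31 and 7.36 in Fes WT and 7.76, 6.02, 7.21, 7.90 and 7.22 in Fes KO, with Fes KO 2 the lowest of the 10. For the myelin genes it was 5.30, 4.93, 4.81, 4.55 and 4.79 in Fes WT and 4.99, 4.68, 4.85, 4.91 and 4.88 in Fes KO, and every Fes KO tumour lay inside the Fes WT range. Of these 3 classes the early crest genes had the least overlap between groups.

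**Figure D2:**
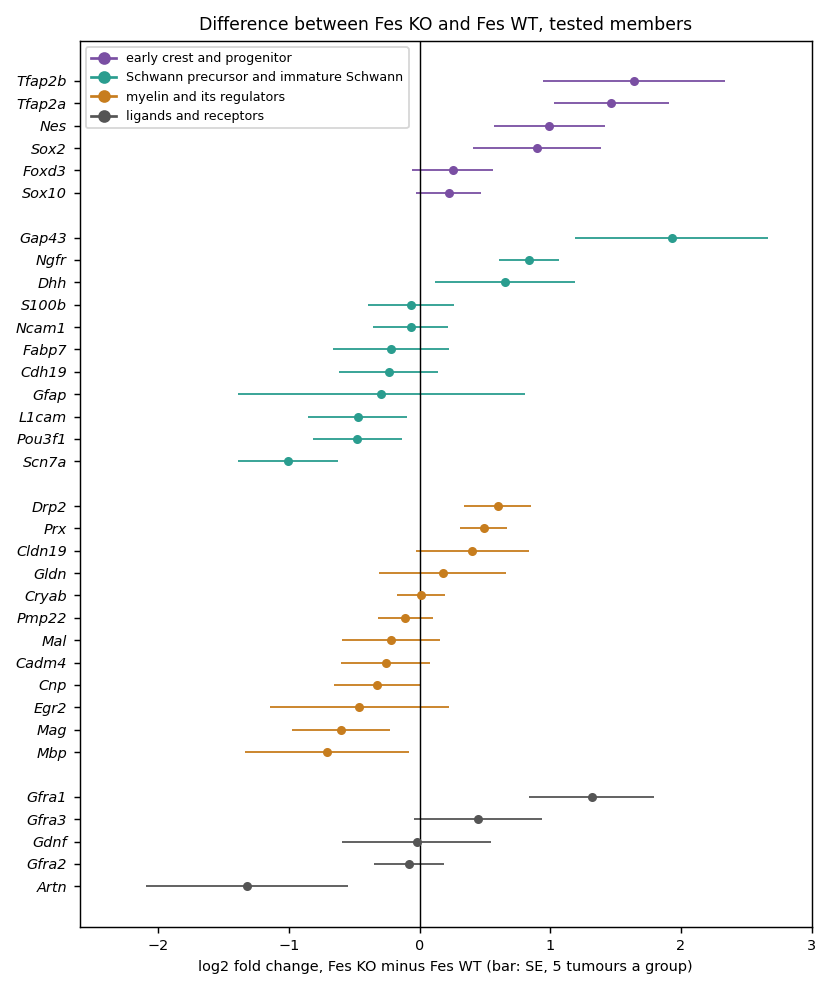
Log2 fold change (Fes KO minus Fes WT) with its SE for the 34 tested members, grouped by class, with a line at 0. All 6 early crest genes lie above 0, Gap43 has the highest value at 1.93, and Artn and Scn7a the lowest at -1.32 and -1.01.

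Tfap2a, an AP-2 transcription factor of the neural crest, melanocytes and epidermis (chromosome 13, 40715302 to 40738376, GRCm38), was at 15.2, 8.34, 11.2, 9.95 and 20.4 CPM in Fes WT 1 to 5 and at 30.7, 83.8, 20.5, 19.1 and 25.5 CPM in Fes KO 1 to 5. Fes KO 2 stood well above the other tumours, and the next 4 Fes KO values overlapped Fes WT only at Fes WT 5. Its log2 fold change was 1.47 (adjusted p = 0.321, SE 0.44). Without Fes KO 2, the tumour with the most keratinocyte and melanocyte RNA, it was 0.87 (adjusted p = 0.255), and with keratinocyte and muscle RNA as terms in the fit it was 1.10 (adjusted p = 0.111). Tfap2b, its paralog in crest and peripheral nerve (chromosome 1, 19208914 to 19238576), was at 14.3, 29.98, 41.9, 10.4 and 127 CPM in Fes WT 1 to 5 and at 105, 72.8, 214, 57.01 and 248 CPM in Fes KO 1 to 5. The highest 2 tumours were Fes KO 5 and Fes KO 3, but Fes WT 5 exceeded 3 Fes KO tumours. The groups averaged 44.7 ± 47.8 CPM in Fes WT and 139 ± 86.2 CPM in Fes KO (SD, n = 5, as for all means here), a log2 fold change of 1.64 (adjusted p = 0.500, SE 0.70).

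Nes encodes nestin, the intermediate filament of progenitors (chromosome 3, 87971078 to 87980451), and was at 129, 307, 224, 226 and 474 CPM in Fes WT 1 to 5 and at 478, 225, 756, 345 and 902 CPM in Fes KO 1 to 5. Fes WT 5 reached the level of Fes KO 1, while Fes KO 2 was among the lower tumours. Its log2 fold change was 0.99 (adjusted p = 0.504, SE 0.42). Sox2, which represses myelination in immature Schwann cells and repair cells, was at 17.7, 19.9, 13.7, 24.7 and 49.9 CPM in Fes WT 1 to 5 and at 35.4, 16.03, 68.4, 27.9 and 87.1 CPM in Fes KO 1 to 5. It was highest in Fes KO 5 and Fes KO 3, as Nes was, followed by Fes WT 5. The log2 fold change of Sox2 was 0.90 (adjusted p = 0.591, SE 0.49). Its span lies within the noncoding gene Sox2ot on the same strand, and Dhh overlaps Rhebl1, so the overlap may affect the counts of such pairs.

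Sox10 itself was at 809, 501, 461, 784 and 628 CPM in Fes WT 1 to 5 and at 969.5, 392, 752, 733 and 867 CPM in Fes KO 1 to 5. The groups overlapped, the lowest tumour being Fes KO 2 and the highest Fes KO 1, with a log2 fold change of 0.22 (adjusted p = 0.806, SE 0.25). Foxd3, a forkhead factor that holds crest cells back from the melanocyte fate, was at 163, 67.5, 95.5, 158 and 119 CPM in Fes WT 1 to 5 and at 193, 106, 122, 214 and 83.2 CPM in Fes KO 1 to 5. The groups overlapped here too, with a log2 fold change of 0.25 (adjusted p = 0.826, SE 0.31). The pigment cell marker Dct, a melanin enzyme, was at 6.78 to 21.4 CPM in Fes WT and at 35.4, 325, 46.96, 29.9 and 1.89 CPM in Fes KO 1 to 5, highest in Fes KO 2, where Sox10 was lowest. Sox10 and S100b are also expressed by melanocytes, and with melanocyte marker RNA as a term in the fit their log2 fold changes were 0.50 and 0.34 (adjusted p = 0.244 and 0.535).

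Among the Schwann precursor and immature Schwann cell genes, Ngfr came closest to separating the groups. Ngfr, the low-affinity neurotrophin receptor p75 (chromosome 11, 95568818 to 95587735), was at 70.8, 77.8, 84.3, 96.5 and 37.4 CPM in Fes WT 1 to 5 and at 139.6, 94.2, 121, 150.1 and 149.7 CPM in Fes KO 1 to 5. A single pair overlapped, Fes KO 2 at 94.2 CPM and Fes WT 4 at 96.5 CPM. The means were 73.4 ± 22.2 CPM in Fes WT and 131 ± 23.6 CPM in Fes KO, a log2 fold change of 0.84 (adjusted p = 0.289, SE 0.23). In the fit with keratinocyte and muscle RNA as terms it was 1.12 with an adjusted p of 0.0321, where 0.439% of all genes passed as higher in Fes KO. Over the 23 alternatives the adjusted p of Ngfr ran from 0.0321 to 0.556 and its log2 fold change from 0.67 to 1.12.

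Scn7a, a sodium channel gene of non-myelinating Schwann cells (chromosome 2, 66673425 to 66784914), was the only member lower in Fes KO at an unadjusted p below 0.05. It was at 883, 842, 347, 599 and 498 CPM in Fes WT 1 to 5 and at 309, 138, 248, 605 and 277 CPM in Fes KO 1 to 5. Fes KO 4 lay inside the Fes WT range, and the other 4 Fes KO tumours lay below all 5 Fes WT tumours. Its log2 fold change was -1.01 (adjusted p = 0.443, SE 0.38), and it was between -1.38 and -0.65 in the alternatives. Gap43, a growth cone protein that Schwann precursors also make (chromosome 16, 42248442 to 42340651), was at 3.07, 5.03, 4.72, 5.92 and 10.9 CPM in Fes WT 1 to 5 and at 27.5, 3.31, 8.69, 64.99 and 8.31 CPM in Fes KO 1 to 5. Fes KO 4 and Fes KO 1 were far above the rest, and the other 3 Fes KO tumours overlapped Fes WT. The log2 fold change was 1.93 (adjusted p = 0.445, SE 0.74), and without Fes KO 4 it was 1.01 (adjusted p = 0.529).

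For several genes of this class the SD within a group was larger than the difference between the group means. Gfap, the intermediate filament of immature and non-myelinating Schwann cells, was at 47.2, 105, 14.4, 18.1 and 548 CPM in Fes WT 1 to 5 and at 108, 6.05, 58.5, 305 and 121 CPM in Fes KO 1 to 5. Its 90.7-fold range over the 10 tumours was the widest of the tested members, with the maximum in Fes WT 5 and the minimum in Fes KO 2. Its log2 fold change of -0.29 (adjusted p = 0.949, SE 1.10) became 1.37 (adjusted p = 0.640) without Fes WT 5. Dhh, the hedgehog ligand by which Schwann cells organise the perineurium, was at 24.4, 63.3, 55.1, 68.8 and 200.2 CPM in Fes WT 1 to 5 and at 137, 50.6, 185, 84.02 and 192 CPM in Fes KO 1 to 5. Fes WT 5 had the highest value and Fes WT 1 the lowest, and the log2 fold change was 0.65 (adjusted p = 0.723, SE 0.54). Cdh19, a cadherin of Schwann precursors, was at 619, 439, 250.4, 768 and 389 CPM in Fes WT 1 to 5 and at 434, 144, 485, 582 and 451 CPM in Fes KO 1 to 5. S100b was at 325, 461, 192, 388 and 314 CPM in Fes WT 1 to 5 and at 374, 113, 384, 364 and 369.7 CPM in Fes KO 1 to 5. Fes KO 2 was the lowest tumour for both, with the other 4 Fes KO tumours inside the Fes WT range, and the log2 fold changes were -0.23 for Cdh19 and -0.07 for S100b (SE 0.38 and 0.33).

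The adhesion molecules of Schwann cell surfaces overlapped between groups. L1cam was at 899, 553, 374, 974 and 388 CPM in Fes WT 1 to 5 and at 712, 250.3, 379.6, 657 and 299 CPM in Fes KO 1 to 5. It was highest in Fes WT 4 and Fes WT 1 and had a log2 fold change of -0.47 (adjusted p = 0.716, SE 0.38). Ncam1 ranged over 159.9 to 360.1 CPM in Fes WT and 128 to 304 CPM in Fes KO, with a log2 fold change of -0.07 (adjusted p = 0.955, SE 0.29). Pou3f1, the promyelinating factor also called Oct6, ranged over 195 to 621 CPM in Fes WT and 187 to 418 CPM in Fes KO and Fabp7, a fatty acid-binding protein of glial precursors, over 63.9 to 229 CPM in Fes WT and 45.6 to 196 CPM in Fes KO. Their log2 fold changes were -0.48 and -0.22 (SE 0.34 and 0.44), neither beyond the spread between tumours. L1cam shares its span with Arhgap4 and Avpr2, and S100b with Dip2a, so the overlap may affect the counts of these genes.

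The myelin class held 2 genes with an unadjusted p below 0.05, both parts of 1 complex. Prx, periaxin (chromosome 7, 27499324 to 27520214), was at 16.00, 20.9, 20.6, 20.9 and 26.6 CPM in Fes WT 1 to 5 and at 21.7, 24.4, 39.8, 31.6 and 30.03 CPM in Fes KO 1 to 5. Every Fes KO value but that of Fes KO 1 and Fes KO 2 exceeded the Fes WT maximum of 26.6 CPM in Fes WT 5. The log2 fold change was 0.49 (adjusted p = 0.432, SE 0.18). Drp2, which binds periaxin where the myelin sheath touches the Schwann cell surface (chromosome X, 134404551 to 134456573), was at 15.6, 19.6, 11.1, 12.1 and 20.05 CPM in Fes WT 1 to 5 and at 20.1, 13.2, 28.04, 26.9 and 30.6 CPM in Fes KO 1 to 5. Fes KO 3, 4 and 5 lay above all Fes WT tumours, as they did for Prx, Fes KO 1 barely did so, and Fes KO 2 was among the lowest. The log2 fold change of Drp2 was 0.60 (adjusted p = 0.500, SE 0.25). Both genes were low per length, at 4.53 CPM per kb for Prx and 2.31 for Drp2.

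Egr2, the transcription factor that starts myelination, was at 169, 29.8, 55.7, 24.7 and 17.5 CPM in Fes WT 1 to 5 and at 28.4, 68.2, 23.1, 14.1 and 82.1 CPM in Fes KO 1 to 5. Fes WT 1 was the highest tumour, and without it the log2 fold change of -0.46 (adjusted p = 0.865, SE 0.69) became 0.44 (adjusted p = 0.891). Mbp, myelin basic protein, was at 605, 365, 99.2, 49.1 and 205 CPM in Fes WT 1 to 5 and at 219, 53.01, 231, 187 and 120.5 CPM in Fes KO 1 to 5. It was also highest in Fes WT 1, and its log2 fold change was -0.71 (adjusted p = 0.747, SE 0.63). Mag, the adhesion protein of the inner myelin layer, was at 2.55, 2.74, 1.64, 0.610 and 2.90 CPM in Fes WT 1 to 5 and at 1.32, 1.37, 1.17, 1.83 and 1.17 CPM in Fes KO 1 to 5, from 10 to 43 counts per tumour, with a log2 fold change of -0.60 (adjusted p = 0.633, SE 0.37). Mbp is made by oligodendrocytes and some immune cells as well. Summed oligodendrocyte markers reached 40.7 CPM in Fes WT 1, where Mbp was highest. They reached 48.6 CPM in Fes WT 4, where Mbp and Mag were the lowest of the 10 tumours. Most of these sums came from Mog (24.8 and 30.9 CPM) and Myrf (14.8 and 13.8 CPM). The part of such cells in the Mbp and Mag values was not tested.

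Pmp22 was at 863, 724, 761, 720.5 and 885 CPM in Fes WT 1 to 5 and at 886, 430.2, 610.2, 713 and 1029 CPM in Fes KO 1 to 5, and 9 of the 10 tumours lay between 610 and 1029 CPM. Fes KO 2 was the exception, and the log2 fold change was -0.11 (adjusted p = 0.902, SE 0.21). Cryab was at 355, 331, 404, 303 and 249 CPM in Fes WT 1 to 5 and at 367, 212, 313, 362 and 399 CPM in Fes KO 1 to 5. It varied least of the tested members, 1.90-fold from lowest to highest, with a log2 fold change of 0.01 (adjusted p = 0.994, SE 0.18). Cryab is also a muscle gene. The muscle-rich Fes WT 3 had its highest value of 404 CPM. Fes KO 2, next in summed muscle markers at 1961 CPM, had its lowest value of 212 CPM. Cnp, a phosphodiesterase of uncompacted myelin, ranged over 219.8 to 691 CPM in Fes WT and 238 to 492 CPM in Fes KO. Mal, a raft proteolipid, ranged over 47.7 to 162 CPM in Fes WT and 36.9 to 108 CPM in Fes KO. Cadm4 ranged over 559.8 to 1499.8 CPM in Fes WT and 373 to 1206 CPM in Fes KO. Their log2 fold changes of -0.32, -0.22 and -0.26 were each smaller than their SE of 0.33, 0.38 and 0.34. Cnp overlaps Dnajc7 and Cryab overlaps Hspb2, on the opposite strand in each case, and the strand setting of the counting is not given in the sources used here.

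The node and junction genes and the enzyme gene of a myelin lipid had few counts. Gldn, which clusters sodium channels at nodes, ranged over 0.588 to 1.68 CPM in Fes WT and 0.431 to 2.56 CPM in Fes KO and Cldn19, a tight junction protein of the paranodal loops, over 0.366 to 1.44 CPM in Fes WT and 0.588 to 1.37 CPM in Fes KO. Ugt8a, the enzyme of galactocerebroside synthesis, had 6, 3, 9, 3 and 5 counts in Fes WT 1 to 5 and 3, 13, 12, 8 and 2 counts in Fes KO 1 to 5. Ugt8a was not tested. The log2 fold changes of Gldn and Cldn19 were 0.18 (adjusted p = 0.929, SE 0.48) and 0.40 (adjusted p = 0.797, SE 0.43), respectively.

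Of the receptors, Gfra1, the co-receptor for GDNF (chromosome 19, 58235604 to 58455909), was at 54.7, 95.7, 43.05, 109 and 211 CPM in Fes WT 1 to 5 and at 251, 80.8, 333, 277 and 337 CPM in Fes KO 1 to 5. Fes KO 1, 3, 4 and 5 exceeded every Fes WT tumour, and Fes KO 2 lay among the Fes WT values. The log2 fold change was 1.32 (adjusted p = 0.422, SE 0.48), and over the alternatives it lay between 0.98 and 2.06 with adjusted p between 0.0534 and 0.754. Gfra2, the neurturin receptor, ranged over 169 to 486 CPM in Fes WT and 247 to 441 CPM in Fes KO and had a log2 fold change of -0.08 (adjusted p = 0.943, SE 0.27). Gfra3, the artemin receptor, ranged over 124 to 515 CPM in Fes WT and 136 to 636 CPM in Fes KO and had one of 0.45 (adjusted p = 0.801, SE 0.49). Both were abundant, at 96.1 CPM per kb for Gfra2 and 157 for Gfra3, above Gfra1 at 32.7.

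The ligands were scarce beside their receptors. Gdnf was at 1.04, 2.74, 7.42, 2.01 and 6.94 CPM in Fes WT 1 to 5 and at 2.27, 2.12, 3.82, 3.53 and 8.09 CPM in Fes KO 1 to 5, a log2 fold change of -0.02 (adjusted p = 0.996, SE 0.57). Artn was at 0.784, 0.764, 3.15, 0.427 and 4.27 CPM in Fes WT 1 to 5 and at 0.883, 1.56, 0.123, 0.915 and 0.219 CPM in Fes KO 1 to 5. Fes WT 5 and Fes WT 3 were the highest of the 10 tumours for Artn, and its log2 fold change was -1.32 (adjusted p = 0.611, SE 0.78). Nrg1 had 1, 3, 5, 1 and 10 counts in Fes WT 1 to 5 and 0, 21, 0, 7 and 1 counts in Fes KO 1 to 5. The highest Nrg1 count was in Fes KO 2, and 2 Fes KO tumours had none.

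Other genes of the same pathways were read from lists set beside the members, and none of them passed the edgeR test at an adjusted p below 0.05. Of 10 other myelin genes, 7 were tested and 4 had log2 fold changes above 0, with a median of 0.20. Gjc3, a connexin of Schwann cells and oligodendrocytes, was at 300.4 ± 133 CPM in Fes WT and 262 ± 73.1 CPM in Fes KO, a log2 fold change of -0.20 (SE 0.32). Of 11 other Schwann and ErbB genes, all tested, 5 were above 0 and the median was -0.12. Erbb3, the neuregulin receptor, was at 603 ± 211 CPM in Fes WT and 624 ± 186 CPM in Fes KO, a log2 fold change of 0.05 (SE 0.27). Of 11 other crest genes, 9 were tested and 5 were above 0, with a median of 0.05. Ets1 and Zeb2, crest transcription factors, had log2 fold changes of 0.20 and -0.03 (SE 0.20 and 0.30). Of 5 other GDNF family genes, 2 were tested. Ret, the signalling receptor, was at 1.77 to 5.71 CPM in Fes WT and 0.986 to 35.5 CPM in Fes KO, with Fes KO 2 at 35.5 CPM and no other Fes KO tumour above 3.86 CPM.

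Tumours of a group also differed from each other in these genes. Fes KO 2 was the lowest Fes KO tumour for 22 of the 34 tested members and the lowest of all 10 for 11. Fes WT 3 was the lowest Fes WT tumour for 11. These 2 tumours had the most keratinocyte and muscle RNA, respectively, and their part in the low values was not tested. Without both tumours, 0 members passed the edgeR test. Fes WT 5 was the highest Fes WT tumour for 14 members, among them Nes, Sox2, Dhh, Gfap and Gfra1. Fes WT 1 was the highest of all 10 for 8 members, among them Mbp, Egr2, Mal and Cnp. Fes KO 5 was the highest of all 10 for 7.

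**Figure D3:**
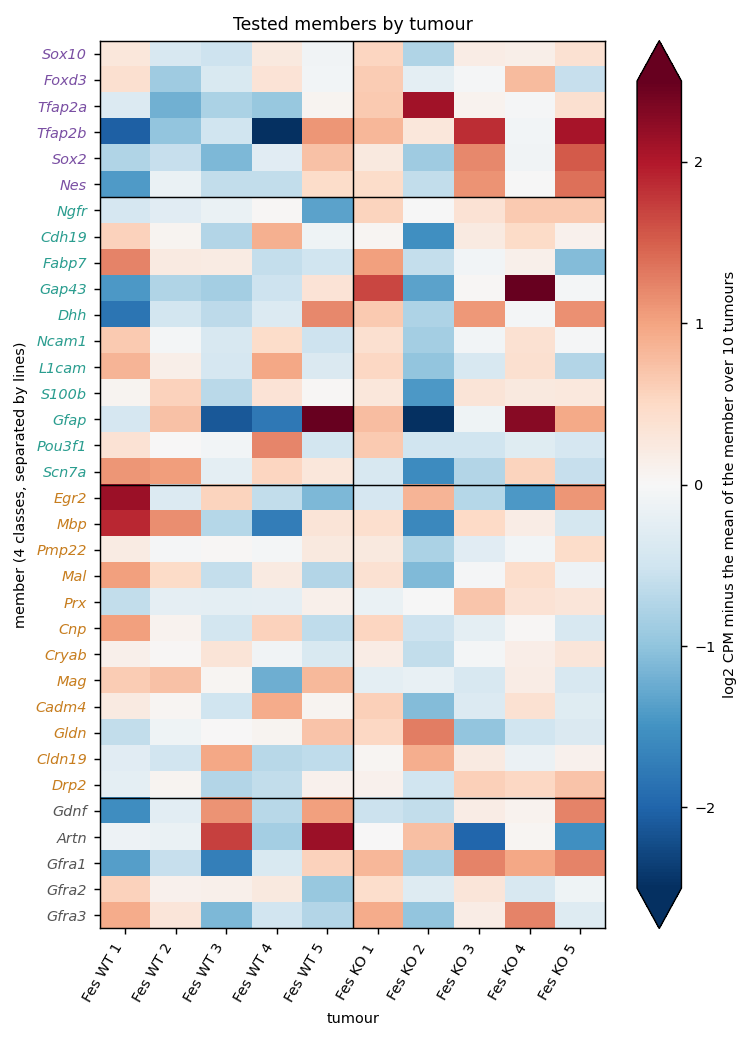
Log2 CPM of each of the 34 tested members in the 10 tumours as the difference from that member's mean, in class order (colour scale in log2 units). Fes KO 2 is low for most Schwann precursor genes, and Fes WT 5 and Fes KO 1, 3 and 5 are high for Nes, Sox2 and Dhh.

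Members were then compared with each other across the 10 tumours by the correlation of log2 CPM. Of the 561 pairs of tested members, 330 had a positive r and 231 a negative one, and 10 pairs passed at a Benjamini-Hochberg adjusted p below 0.05, all positive. This survey of all pairs was chosen after the data had been seen. The pairs that passed formed 2 separate sets. One set was Sox2, Nes, Dhh and Gfra1, which took in 5 of the 10 pairs and crossed the early, Schwann precursor and receptor classes. The other was Cdh19, Ncam1, L1cam, Mal, Cnp and Cadm4, with the other 5, which joined Schwann precursor genes with myelin genes. With values centred within Fes KO and within Fes WT, 11 pairs passed, 7 of them the same.

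In the first set, Nes and Dhh were the closest pair (Pearson r = 0.95, permutation p = 9e-05, adjusted p = 0.0206). Their Spearman ρ was 0.90 (permutation p = 8.4e-04), and r was 0.92 without the 2 tumours farthest from the median of Nes. Both were high in Fes KO 5 and Fes KO 3 and lowest in Fes WT 1. Sox2 and Nes had Pearson r = 0.92, permutation p = 1.1e-04, adjusted p = 0.0206. For this pair, Spearman ρ was 0.94 (permutation p = 8e-05), and r was 0.79 without the 2 tumours farthest from the median of Sox2. Sox2 with Dhh gave Pearson r = 0.89, permutation p = 4.9e-04, adjusted p = 0.0393, and Sox2 with Gfra1 gave Pearson r = 0.89, permutation p = 7.3e-04, adjusted p = 0.0426. For Sox2 with Gfra1, Spearman ρ was 0.94 (permutation p = 1.6e-04), and r was 0.86 without the 2 tumours farthest from the median of Sox2. Nes and Gfra1 had Pearson r = 0.88, permutation p = 7.5e-04, adjusted p = 0.0426. The Nes and Dhh promoters printed above both hold the GC box, as did 13 of the 25 members' windows and 32.7% of all windows. In the same set, the whole window of Sox2 held 2 GC boxes and that of Gfra1 held 0. A link between this motif and the shared pattern was not tested.

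In the second set, Ncam1 and Mal were closest (Pearson r = 0.93, permutation p = 6e-05, adjusted p = 0.0206). Their Spearman ρ was 0.81 (permutation p = 0.00746), and r was 0.86 without the 2 tumours farthest from the median of Ncam1. L1cam with Cadm4 gave Pearson r = 0.90, permutation p = 2.8e-04, adjusted p = 0.0393, and L1cam with Cnp gave Pearson r = 0.90, permutation p = 4.4e-04, adjusted p = 0.0393. For L1cam with Cadm4, Spearman ρ was 0.92 (permutation p = 4.8e-04), and r was 0.91 without the 2 tumours farthest from the median of L1cam. The 6 genes were highest in Fes WT 1 or Fes WT 4, and all but Cnp were lowest in Fes KO 2. Ncam1 with Cnp gave Pearson r = 0.88, permutation p = 7.6e-04, adjusted p = 0.0426, and Cdh19 with Ncam1 gave Pearson r = 0.87, permutation p = 4.5e-04, adjusted p = 0.0393. For Cdh19 with Ncam1, Spearman ρ was 0.82 (permutation p = 0.00585), and r was 0.75 without the 2 tumours farthest from the median of Cdh19. Over the 10 pairs of both sets, ρ was between 0.81 and 0.94, with permutation p between 8e-05 and 0.00746. No pair that passed joined a gene of one set to a gene of the other.

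**Figure D4:**
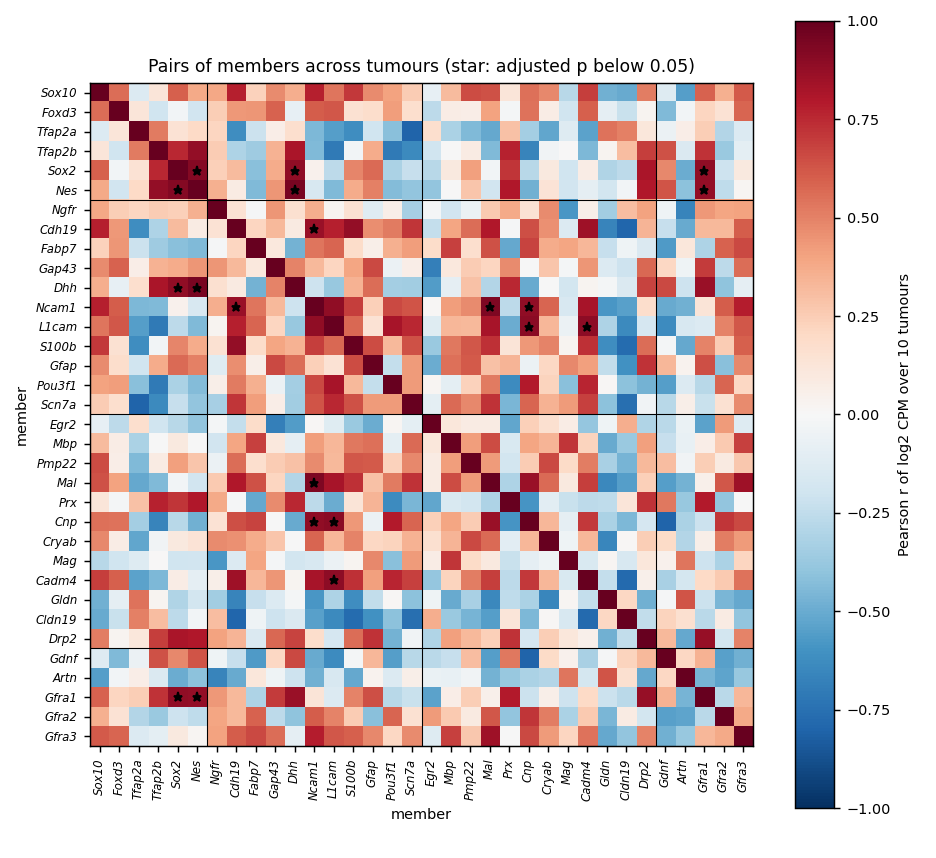
Pearson r of log2 CPM over 10 tumours for all pairs of the 34 tested members, in class order. The 10 pairs that passed at an adjusted p below 0.05 are marked, and all of them are positive.

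A smaller family of 9 relations was named in the design, of which 7 are given here, with p-values adjusted over all 9. Sox10 with Cdh19 gave r = 0.78 (permutation p = 0.00672, adjusted p = 0.0302) and ρ = 0.58 (permutation p = 0.0889, adjusted p = 0.441). Without Fes KO 2 and Fes WT 3, the tumours farthest from the median of Sox10, r was 0.24. With those tumours kept and values centred within groups, r was 0.87 (0.88 in Fes WT alone and 0.87 in Fes KO alone). The size of the relation thus depended on which tumours were included. The other 6 did not pass, with adjusted p between 0.466 and 0.746. They were Sox10 with Mbp (r = 0.32), with Ngfr (r = 0.39) and with Dct (r = -0.48), Prx with Mag (r = -0.23), Cryab with the muscle actin gene Acta1 (r = -0.12), and Artn with Gfra3 (r = -0.38). Their ρ lay between -0.35 and 0.42, with adjusted p between 0.623 and 0.811.

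**Figure D5:**
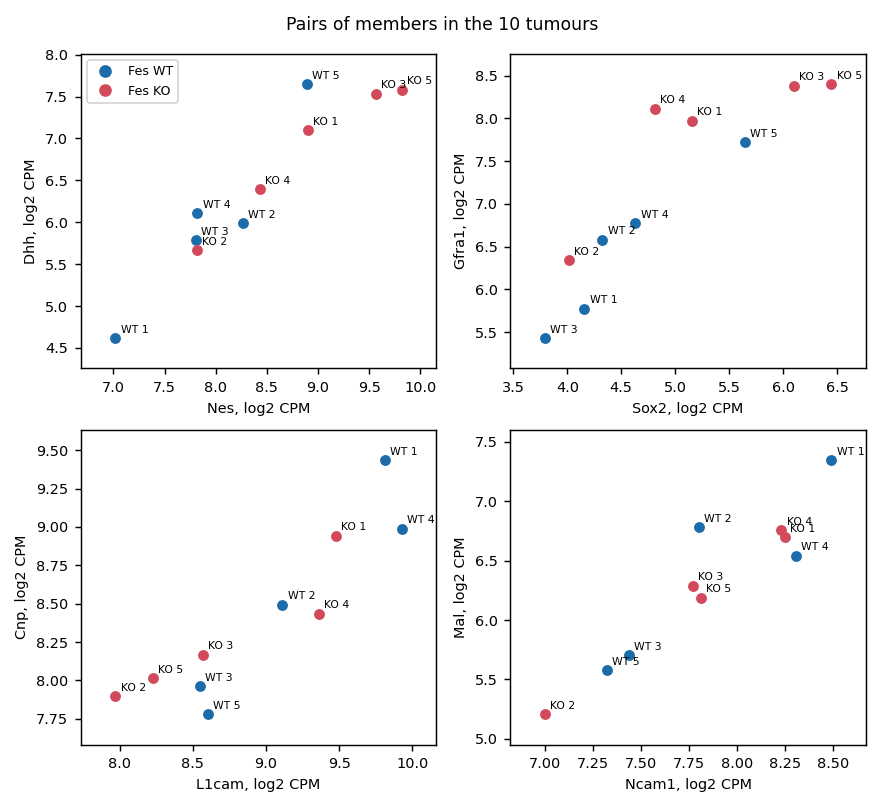
Log2 CPM of pairs of members in the 10 tumours, 1 point per tumour, with Fes WT and Fes KO in separate colours. Nes with Dhh (r = 0.95) and Sox2 with Gfra1 (r = 0.89) run up to Fes KO 3 and Fes KO 5, and Dhh is highest in Fes WT 5. L1cam with Cnp (r = 0.90) runs up to Fes WT 1 and Fes WT 4, and Ncam1 with Mal (r = 0.93) runs from Fes KO 2 up to Fes WT 1.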

How the data were processed

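RNA was measured by sequencing in 10 melanomas, grouped as Fes KO or Fes WT by their titles. The authors deposited raw read counts per gene and log2 values of the same genes. The log2 values deposited by the authors equal log2(count / size factor + 1), with a largest difference of 5.01e-11 from values recomputed from the counts. Per the submitters' processing notes, the tools were FastQC, STAR 2.51b and Subread 1.4.6, on the builds mm10 and GRCm38. The strand setting is not given in the sources used here.

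Counts were tested with edgeR 4.0.16 in R 4.3.3: the 14816 genes that filterByExpr kept were scaled by TMM, fitted by quasi-likelihood with the group as the only term and tested 2-sided, with p-values adjusted by Benjamini-Hochberg over all of them. A positive log2 fold change is higher in Fes KO. CPM use TMM-scaled library sizes, log2 CPM a prior count of 2, and levels per kb the exon length of GENCODE M21 (GRCm38). Total counts of 13226783 to 16599120 per tumour limit the precision for genes of a few counts. Correlations over tumours used 100000 permutations, 2-sided. The alternatives were DESeq2 1.42.0, limma 3.58.1 (voom, and the deposited log2 values), other scalings and filters, tissue covariates and left-out tumours. On simulated counts for 14816 genes, edgeR recovered 49.5% of 2-fold and 92.4% of 4-fold changes. The changes were placed in some of the genes, leaving out those with the lowest means. Counts were drawn for each gene on its own, with no tissue differences shared by the genes of a tumour. These shares therefore need not hold for the real comparison or for low-count members. The members and lists were chosen with earlier results of these data known. Members were described in full where the unadjusted p was below 0.05 or the gene defines its class. From each list of other pathway genes, either or both of the 2 most abundant genes were named, where they add to the members. One relation, Sox2 with Krt14, was not computed because Krt14 was not tested. Some items, among them an allele carried by all 10 tumours, 2 of the correlations and genes of the pathway lists, are not reported here.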

Additional observations from a re-analysis of the deposited data

Results flagged for a closer look

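In 72 groups of 5 tumours, the highest or lowest log2 CPM was compared with the others by Dixon's ratio (critical value 0.71). The ratio was taken on log2 CPM, while the values below are printed as CPM. Chance alone flags about 1 group in 20, and 5 were flagged. Cdh19, the Schwann precursor cadherin, was at 144.1 CPM in Fes KO 2, where the other 4 had 434 to 582 CPM. S100b was at 113.1 CPM in Fes KO 2, with the others at 364 to 384 CPM. Gfra1 was at 80.82 CPM in Fes KO 2, where the remaining 4 had 251 to 337 CPM. All 3 of these low values are in the tumour with the most keratinocyte marker RNA (5705 CPM in sum). Pou3f1, the promyelinating factor, was at 417.9 CPM in Fes KO 1, where the other 4 had 187 to 215 CPM. Cldn19 was at 1.444 CPM in Fes WT 3, with the other Fes WT tumours at 0.366 to 0.522 CPM, values that rest on few counts.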

How the results depend on the processing

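The 0 members that passed with edgeR (9 at an unadjusted p below 0.05) were 2 with DESeq2 and 1 with keratinocyte and muscle covariates, and 0 to 0 when any single tumour was left out. Over all genes, the 26 calls became 270 with DESeq2, 115 with limma-voom, 111 with keratinocyte and muscle covariates, 52 with a melanocyte covariate, 64 without the 3 tumours with Xist, 49 at an adjusted p below 0.1 and 10 to 54 with 1 tumour left out. The fewest, 10, came without Fes KO 1 or Fes KO 3, and the most, 54, without Fes WT 5. With the replicate number as a block, 4 genes and 0 members passed. Same-numbered tumours correlated at 0.17, -0.38, -0.21, -0.11 and 0.14 in their deviations, and no Fes KO tumour correlated best with its own number, so the samples share only a number. With 1 tumour left out, class medians ran from 0.64 to 1.30 (early crest), -0.25 to 0.01 (Schwann precursor), -0.26 to 0.04 (myelin) and -0.08 to 0.27 (ligands and receptors). The myelin median was 0.049 with the melanocyte covariate. The ligand and receptor median was 0.46 without Fes KO 2 and Fes WT 3 and 0.41 without the tumours with Xist.

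Of the 34 tested members, 21 kept the sign of their log2 fold change in every alternative fitted. Cryab, Ncam1, Pmp22, Mal, Fabp7 and Cadm4 changed sign in 7, 5, 4, 3, 2 and 1 alternatives, with values within 1 SE of 0. Members with a larger change of sign were Gdnf at 0.56 (limma-voom) and 0.63 (without Xist tumours), Gfra2 at 0.28 and Egr2 at 0.26 (keratinocyte and muscle covariates), and Egr2 at 0.44 without Fes WT 1. Gldn was at -0.32 (limma-voom), -0.36 (melanocyte covariate, and also without Fes KO 2 and Fes WT 3), -0.53 (without Xist tumours) and -0.35 (without Fes KO 2). With the melanocyte covariate Gfap was at 1.16, S100b at 0.34 and Cdh19 at 0.22. Gfap was at 1.81 without Xist tumours and 1.37 without Fes WT 5. With each single tumour left out in turn, Gfap ran from -0.997 to 1.37 and Egr2 from -0.82 to 0.44. The relation of Sox10 with Cdh19 was 0.58 by Spearman and 0.24 without the 2 farthest tumours. The cause was not tested.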

Other observations

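Outside the rule for named genes, 4 other genes of the pathway lists were picked after their values were seen. Erbb2, the signalling partner of Erbb3 in neuregulin reception, ranged over 65.9 to 88.1 CPM in Fes WT and 84.7 to 108 CPM in Fes KO, a log2 fold change of 0.39 (adjusted p = 0.237, SE 0.10) with edgeR. Sox9, a crest and glial transcription factor that hair follicle keratinocytes also express, ranged over 14.9 to 26.9 CPM in Fes WT and 21.2 to 82.6 CPM in Fes KO, a log2 fold change of 1.06 (adjusted p = 0.359, SE 0.35). Sox8, the close relative of Sox10, ranged over 7.68 to 59.99 CPM in Fes WT and 22.9 to 201 CPM in Fes KO, a log2 fold change of 1.74 (adjusted p = 0.505, SE 0.74). Ncmap, a protein of non-compact myelin, ranged over 0.305 to 0.838 CPM in Fes WT and 0.504 to 4.30 CPM in Fes KO, a log2 fold change of 1.64 (adjusted p = 0.386, SE 0.56). None of the 4 passed at an adjusted p below 0.05. They were the genes of these lists with an unadjusted p below 0.05. By list they were 2 of 7 tested (myelin), 1 of 11 (Schwann and ErbB), 1 of 9 (crest) and 0 of 2 (GDNF). The background was 9.62% of all tested genes, 4.23% as higher in Fes KO. All 4 had higher means in Fes KO, which describes the pick and is no result about the lists. Ncmap had 5 to 59 counts per tumour, and Sox9 was highest in the keratinocyte-rich Fes KO 2.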
